A study of Bos indicus with 5 samples.

Results

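The kinesin motor family was examined in the bovine ampulla, the wide portion of the oviduct that houses fertilization. Members were chosen by symbol alone, as every KIF, KIFC and KLC gene together with KIFAP3, and 44 of the 24616 genes in the deposited table qualified. They were divided into 18 transport kinesins, 10 ciliary kinesins, 13 mitotic kinesins and 3 members placed in none of these classes. Libraries came from 5 multiparous Nelore (Bos indicus) cows, of which 2 were labelled LF/LCL, standing for a large follicle followed by a large corpus luteum, and 3 were labelled SF/SCL, where both structures were small. All cows were first presynchronized with 0.5 mg of the prostaglandin analog cloprostenol and 1 µg of the GnRH agonist buserelin, and then carried a 1 g progesterone device, inserted with 2 mg estradiol benzoate. Each cow was given prostaglandin when the device was withdrawn and once more some hours later, and a GnRH agonist to induce ovulation. The device was withdrawn 42 h before GnRH in LF/LCL and 30 h before GnRH in SF/SCL, and LF/LCL cows had a further prostaglandin injection when the device was inserted. The ampulla on the side of the corpus luteum was taken on day 4 and its whole wall was used, so that epithelium, muscle, stroma, vessels and nerves were sequenced together. The sequenced cows were picked by the study as those ranking highest in the LF/LCL group and lowest in the SF/SCL group, and a further LF/LCL library was not analysed here.

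Kinesins are motor proteins that spend ATP to walk along microtubules or to take microtubule ends apart. Transport kinesins haul vesicles and organelles through the cytoplasm, ciliary kinesins carry material into cilia or act within the ciliary shaft and at its tip, and mitotic kinesins build the spindle, move chromosomes and complete cytokinesis. The oviduct epithelium holds multiciliated cells, whose beating moves gametes and embryos, and secretory cells. The tissue is therefore rich in ciliary microtubules, while its dividing cells are few.

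Between 13418278 and 19592174 reads per library were assigned to genes, and a single read was worth 0.777 to 1.17 normalized reads, which are read counts divided by the size factor of the library. OVGP1, the oviduct glycoprotein made by secretory cells, ranged from 117180 to 147250 normalized reads, and FOXJ1, the master regulator of motile cilia, from 8482 to 12698, so that both defining epithelial cell types were present in every library. The makeup of the libraries was not the same. The summed reads of 11 smooth muscle markers were 126700 and 65504 in LF/LCL against 40882, 43586 and 17523 in SF/SCL, and those of 22 ciliated cell markers were 80864 and 101580 against 119490, 122440 and 117080. In a bulk tissue, fewer cells of a type and less RNA per cell cannot be told apart, and the part of these differences in the kinesin values was not tested.

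All but 1 of the 44 kinesins had a read in every library, the exception being KIF2B. Mean values over the 5 libraries were at least 1000 normalized reads for 12 members, from 10 to under 1000 for 28 and under 10 for 4. These values were not divided by transcript length, so that all sums and shares given here count reads and not transcripts, and no order of transcript levels among genes is drawn from them. The classes differed in how steady their members were, and also in their read counts. The median of the member means was 858 for transport, 1050 for ciliary and 34.4 for mitotic kinesins, and counting error is larger at low counts. Its part in the spread was not tested. From the lowest to the highest library a typical (median) transport kinesin spanned 1.66-fold, a typical ciliary kinesin 1.504-fold and a typical mitotic kinesin 3.29-fold. More than 2-fold separated the extreme libraries for 4 of 18 transport, 2 of 10 ciliary and 8 of 13 mitotic kinesins. KIF2B, whose lowest value was 0, has no such ratio and entered neither the mitotic median nor the 8. The plot of all members by library shows this spread.

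**Figure D1:**
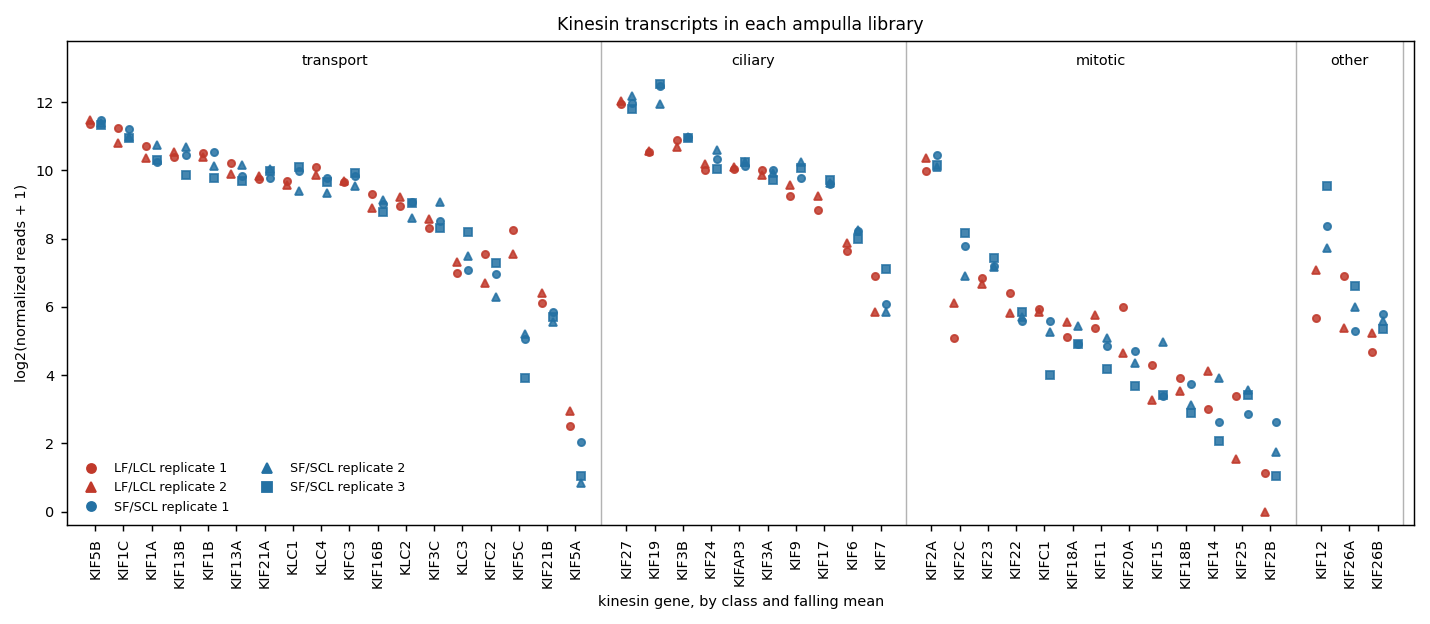
Every kinesin (horizontal axis, grouped by class) with its log2(normalized reads + 1) in each library (vertical axis), LF/LCL in red and SF/SCL in blue, with the marker shape giving the replicate. Most transport and ciliary kinesins have nearly coincident points, whereas KIF5C, KIF19, KIF2C and KIF12 show separate red and blue points.

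Of the 44 members, 42 had a mean above 5 normalized reads and were tested with limma among 15815 genes. No kinesin passed an adjusted p of 0.05, the background over all genes tested also being 0%, and the smallest adjusted p of any gene was 0.178. At an unadjusted p under 0.05, 6 kinesins (14.3%) differed against 11.5% of all genes tested. KIF5C was higher in LF/LCL, where the background of that direction was 5.64%. KIF19, KIF17, KIF9, KIF2C and KIF12 were higher in SF/SCL, with a background of 5.86%. The quasi-likelihood test of edgeR on whole reads likewise gave 0 adjusted calls (0% of all genes) and 6 unadjusted ones (11.6% of all genes). DESeq2 called KIF5C, KIF19, KIF2C and KIF12, which are 4 of 42 members, whereas it called 2.89% of all genes. The groups did not overlap for 15 tested members (35.7%) against 30.1% of all genes, with 5 members entirely higher in LF/LCL (background 15.0%) and 10 entirely higher in SF/SCL (background 15.1%). The share of kinesins lay close to the background by overlap and by these limma and edgeR counts, and above it by DESeq2. With limma's plain eBayes in place of the trended, robust form it was 10 of 42 against 10.5% of all genes. The larger differences were held by few members of different classes.

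The direction of the differences varied by class. The median log2 fold change of LF/LCL over SF/SCL was 0.13 for the 17 tested transport kinesins, -0.20 for the 10 ciliary kinesins and 0.33 for the 12 tested mitotic kinesins, against 0.01 over all genes tested. In the transport class 11 members had the higher mean log2 value in LF/LCL and 6 in SF/SCL, in the ciliary class 3 and 7, and in the mitotic class 7 and 5. Non-overlapping groups were found for 3 transport kinesins, all higher in LF/LCL, for 6 ciliary kinesins, all higher in SF/SCL, and for 4 mitotic kinesins, 2 in each direction. These are 17.6%, 60.0% and 33.3% of the tested members of each class, where 30.1% of all genes did not overlap. The transport median depended on single libraries, being -0.07 without LF/LCL replicate 1 and 0.04 or 0.02 when SF/SCL replicate 2 or 3 was left out. Whether the classes differed from each other was not tested, as members of a class are not replicates of a condition.

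**Figure D2:**
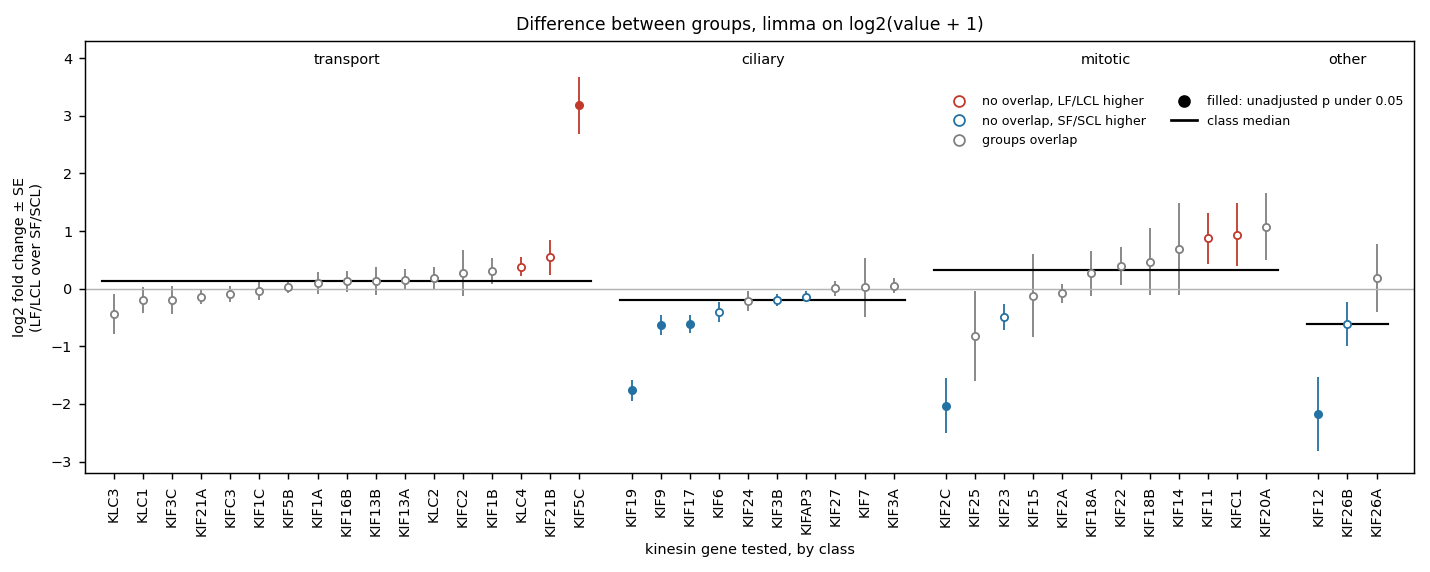
Log2 fold change (LF/LCL over SF/SCL) with its standard error for each tested kinesin, by class, with the class median as a black line. Colour gives the direction of non-overlapping groups and filled points have an unadjusted limma p under 0.05. KIF5C at 3.18 lies far from other transport kinesins, and KIF19, KIF2C and KIF12 lie at -1.76, -2.03 and -2.17.

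Of the ciliary kinesins, 7 of 10 leaned towards SF/SCL. KIF19, a motor of the kinesin-8 type that sits at the tip of motile cilia and trims their microtubules, was the member with the lowest p of the family. It is known from mouse work as a regulator of cilium length, with loss of the gene lengthening oviduct cilia and impairing female fertility. KIF19 had 1475 and 1528 normalized reads in the LF/LCL libraries and 5684, 3971 and 5886 in the SF/SCL libraries. The lowest SF/SCL library was well above both LF/LCL libraries, which were nearly equal. Mean values were 1502 ± 37.5 (SD, n = 2) and 5181 ± 1052 (SD, n = 3), or 3.45-fold more in SF/SCL. The log2 fold change was -1.76 ± 0.19 (SE), with an unadjusted limma p of 7.01e-05, an adjusted p of 0.178 and a DESeq2 adjusted p of 2.36e-12. The limma p ranked at position 3 among 15815 genes. Leaving out any 1 library gave a log2 fold change between -1.95 and -1.66.

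The KIF19 difference was larger than that of the ciliary genes it was set beside. None of the 22 ciliated cell markers or the 21 intraflagellar transport genes tested had a lower log2 fold change than KIF19. KIF19 supplied 12.6% and 12.5% of all ciliary kinesin reads in LF/LCL against 33.0%, 23.8% and 34.9% in SF/SCL. Per 1000 reads of ciliated cell markers there were 18.2 and 15.0 KIF19 reads in LF/LCL against 47.6, 32.4 and 50.3 in SF/SCL, so that groups remained apart, 2.61-fold, after this scaling. Summed over the class, ciliary kinesins had 11755 and 12249 normalized reads in LF/LCL against 17203, 16680 and 16874 in SF/SCL, 1.41-fold more. With KIF19 removed, a step taken after its values were seen, the sums were 10279 and 10721 against 11519, 12709 and 10987, and the ratio was 1.12.

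KIF17 and KIF9 showed smaller differences in the same direction. KIF17, a homodimeric kinesin-2 that travels in cilia, had 455 and 604 normalized reads in LF/LCL against 779.8, 786 and 840.3 in SF/SCL. The groups were apart, the SF/SCL libraries being close together and the LF/LCL libraries less so. Means were 529.5 ± 105 (SD, n = 2) and 802 ± 33.2 (SD, n = 3), a ratio of 1.51. It had a log2 fold change of -0.61 ± 0.15 (SE), with an unadjusted limma p of 0.00652, an adjusted p of 0.294 and a DESeq2 adjusted p of 0.0674. KIF9, a motor of the central apparatus of motile cilia, had 608 and 756 normalized reads in LF/LCL against 878, 1214 and 1081 in SF/SCL. The gap between the groups was narrower than the range within SF/SCL. Means were 682 ± 105 (SD, n = 2) and 1057 ± 169 (SD, n = 3), a ratio of 1.55. For KIF9 the log2 fold change was -0.63 ± 0.18 (SE), with an unadjusted limma p of 0.0117, an adjusted p of 0.314 and a DESeq2 adjusted p of 0.103.

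Scaling to ciliated cell markers treated these 2 genes differently from KIF19. Per 1000 marker reads, KIF17 had 5.63 and 5.95 reads in LF/LCL against 6.53, 6.42 and 7.18 in SF/SCL, the groups being still apart but close. KIF9 had 7.51 and 7.44 against 7.34, 9.91 and 9.23, and the groups overlapped. The sum of these markers was itself lower in both LF/LCL libraries, and 21 of the 22 markers had a lower mean log2 value there. CAPS and TPPP3 had the most reads among the markers. CAPS had 13413 and 22011 normalized reads in LF/LCL against 24228, 19701 and 21410 in SF/SCL, with overlap. Its part in the scaled values was not tested.

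KIF27, with 3331 to 5913 reads per library, showed no such separation. It is a relative of the Drosophila Hedgehog component Costal2 and is linked to the assembly of motile cilia together with STK36. KIF27 had 3906 and 4231 normalized reads in LF/LCL against 4043, 4595 and 3588 in SF/SCL, with both LF/LCL libraries inside the SF/SCL range. Means were 4069 ± 229 (SD, n = 2) and 4076 ± 505 (SD, n = 3), and the log2 fold change was 0.004 ± 0.13 (SE; limma adjusted p = 0.995). Per 1000 ciliated cell marker reads KIF27 had 48.3 and 41.7 in LF/LCL against 33.8, 37.5 and 30.6 in SF/SCL, the opposite order to KIF19. KIF7, the other Costal2 relative and a regulator of Hedgehog signalling at the tip of primary cilia, had only 118 and 56.1 against 66.5, 56.7 and 136 normalized reads, and the groups overlapped.

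The heterotrimeric kinesin-2, which pulls intraflagellar transport trains towards the ciliary tip and also carries cargo outside cilia, was steady. Its motor subunit KIF3B had 1879 and 1635 normalized reads in LF/LCL against 2023, 2018 and 1981 in SF/SCL. All SF/SCL libraries were higher, by a small margin, with means of 1757 ± 172 (SD, n = 2) and 2008 ± 23.0 (SD, n = 3). The log2 fold change was -0.20 ± 0.10 (SE; limma adjusted p = 0.527). The partner motor KIF3A had 1030 and 923 against 1027, 971 and 838 normalized reads and overlapped, while the accessory subunit KIFAP3, with 1048 and 1106 against 1117, 1223 and 1216, did not overlap but had a log2 fold change of only -0.14 ± 0.10 (SE). Summed over the complex there were 3957 and 3665 against 4167, 4213 and 4035 normalized reads.

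The last ciliary members were KIF6 and KIF24. KIF6, a kinesin-9 relative of KIF9 that occurs in motile cilia, had 199 and 233 normalized reads in LF/LCL against 297, 303 and 255 in SF/SCL, without overlap, its log2 fold change being -0.40 ± 0.17 (SE; limma adjusted p = 0.461). KIF24, which acts at the mother centriole and restrains cilium formation, had 1036 and 1176 against 1287, 1540 and 1052, with overlap.

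The genes that work with ciliary kinesins were counted from lists of pathway members. Of 21 intraflagellar transport entries tested, 19 had the higher mean log2 value in SF/SCL, 12 did not overlap, all being higher in SF/SCL, and 8 had an unadjusted p under 0.05. These are 57.1% and 38.1% of the entries, against 30.1% and 11.5% of all genes in either direction. DESeq2 called 2 of them, and 2.89% of all genes. Their median log2 fold change was -0.30, against 0.01 over all genes, and their summed reads were 29776 and 30806 against 36904, 39753 and 36673. The smallest p values were those of WDR19, an IFT-A subunit with 2415 and 2186 against 2936, 3190 and 3378 normalized reads (log2 fold change -0.46), and IFT172, an IFT-B subunit with 2627 and 2825 against 3662, 3626 and 4374 (log2 fold change -0.51). For the 22 ciliated cell markers the median was -0.35, with 12 at an unadjusted p under 0.05, 15 without overlap and 3 DESeq2 calls, all higher in SF/SCL. These are 54.5% and 68.2% of the markers for the first 2 counts, read against the same backgrounds. Of 12 Hedgehog pathway genes, which bear on KIF7 and KIF27, 5 leaned towards LF/LCL and 7 towards SF/SCL, and 1 (8.33%) had an unadjusted p under 0.05. That gene was STK36, the Fused homolog, with 661 and 688 against 870.2, 809 and 936 normalized reads (log2 fold change -0.37, limma adjusted p = 0.347).

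**Figure D3:**
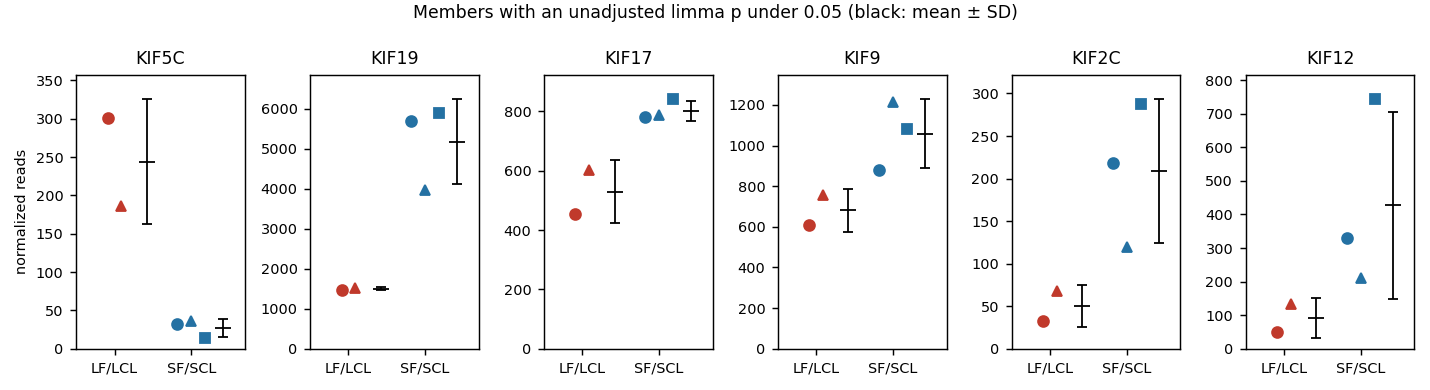
Normalized reads (vertical axis, from 0) of the 6 kinesins with an unadjusted limma p under 0.05 in the 2 LF/LCL libraries (red) and 3 SF/SCL libraries (blue), with group mean ± SD in black. Groups are apart in all 6 panels, with KIF5C higher in LF/LCL and KIF19, KIF17, KIF9, KIF2C and KIF12 higher in SF/SCL.

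Transport kinesins were mostly even across the libraries, with a single large exception. Their summed reads were 16433 and 15147 in LF/LCL against 15714, 15302 and 14079 in SF/SCL, with overlap. The exception was KIF5C, a kinesin-1 heavy chain best known from neurons, where it drives axonal transport. KIF5C had 301 and 187 normalized reads in LF/LCL against 32.2, 35.8 and 14.0 in SF/SCL. Even the lower LF/LCL library was several times the highest SF/SCL library. Means were 244 ± 81.0 (SD, n = 2) and 27.3 ± 11.7 (SD, n = 3), or 8.94-fold more in LF/LCL. This gave a log2 fold change of 3.18 ± 0.50 (SE), with an unadjusted limma p of 0.000631, an adjusted p of 0.178 and a DESeq2 adjusted p of 9.96e-08. It lay between 2.77 and 3.52 when 1 library was left out, and 18 of the 15815 genes had a larger value. The lowest library held 13 KIF5C reads and the highest 257. The spread of KIF5C over the 5 libraries was too large for it to meet the requirement of the study that a mean exceed its standard deviation.

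The other kinesin-1 heavy chains did not share this difference in size. KIF5B, the heavy chain used by nearly all cells to move mitochondria, lysosomes and vesicles, had 2652 and 2867 normalized reads in LF/LCL against 2855, 2703 and 2548 in SF/SCL, and its extreme libraries were only 1.13-fold apart. Means were 2759 ± 152 (SD, n = 2) and 2702 ± 154 (SD, n = 3), and the log2 fold change was 0.03 ± 0.10 (SE; limma adjusted p = 0.94). KIF5A, also a neuronal heavy chain, was close to the detection limit with 4.69 and 6.78 against 3.12, 0.777 and 1.07 normalized reads. Its groups did not overlap, LF/LCL being higher as for KIF5C, but it had only 1 to 7 reads per library and was not tested. KIF5C made up 10.2% and 6.10% of all KIF5 reads in LF/LCL against 1.12%, 1.30% and 0.54% in SF/SCL, the rest being almost wholly KIF5B.

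KIF5C was set beside the markers of the tissue compartments that differed between the libraries. Of 11 smooth muscle markers, all had the higher mean log2 value in LF/LCL, and their median log2 fold change was 1.47. An unadjusted p under 0.05 was reached by 9 (81.8%, against 11.5% of all genes tested). Groups did not overlap for 9 (81.8%, against 30.1%), and DESeq2 called 5, whereas it called 2.89% of all genes. Per 1000 smooth muscle marker reads KIF5C had 2.38 and 2.85 reads in LF/LCL against 0.788, 0.820 and 0.796 in SF/SCL, so that the groups remained apart. Of 13 neuron and glia markers tested, 8 leaned towards LF/LCL and 5 towards SF/SCL. An unadjusted p under 0.05 was reached by 5 and 2 of them (together 53.8%, against 11.5% of all genes tested). Their summed reads, 28918 and 37001 against 21236, 15028 and 11089, consisted mainly of S100B, which other cells also express. The neuronal genes leaned in different directions. Higher in LF/LCL, without overlap and with an unadjusted p under 0.05, as KIF5C was, were DBH, an enzyme of noradrenaline synthesis, NEFH, a neurofilament subunit, SYT1, a calcium sensor of synaptic vesicles, and PRPH, an intermediate filament of peripheral neurons, with log2 fold changes of 3.26, 1.99, 1.72 and 1.38. DBH had 25.8 and 47.4 against 5.20, 0 and 7.51 normalized reads, and PRPH had 121 and 65.8 against 39.5, 44.3 and 21.5. Higher in SF/SCL by the same criteria were SNAP25, a synaptic fusion protein with 42.2 and 31.0 against 108, 173 and 166 normalized reads, and RBFOX3, a nuclear marker of neurons with a log2 fold change of -1.23. NEFL and GAP43, which mark axons, were at 0 reads in all 5 libraries, which allows up to 3 reads in each by counting error. The part of any cell type in the KIF5C difference was not tested.

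Among the remaining motors of vesicles and organelles, KIF1C, which serves membrane traffic in many cell types, had 2415 and 1768 normalized reads in LF/LCL against 2390, 2036 and 1964 in SF/SCL. Both groups spanned much the same range. Means were 2092 ± 457 (SD, n = 2) and 2130 ± 228 (SD, n = 3), with a log2 fold change of -0.04 ± 0.17 (SE; limma adjusted p = 0.956). KIF1A, the carrier of synaptic vesicle precursors in axons, was read in every library, with 1676 and 1319 normalized reads in LF/LCL against 1216, 1722 and 1261 in SF/SCL. Its groups overlapped, means being 1498 ± 252 (SD, n = 2) and 1399.9 ± 280.0 (SD, n = 3), with a log2 fold change of 0.11 ± 0.19 (SE; limma adjusted p = 0.882).

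KIF21B, a kinesin-4 that moves along microtubules and restrains their growth, had 68.0 and 83.2 normalized reads in LF/LCL against 57.2, 45.9 and 51.5 in SF/SCL. Its groups were apart, with means of 75.6 ± 10.8 (SD, n = 2) and 51.5 ± 5.67 (SD, n = 3). The log2 fold change was 0.54 ± 0.30 (SE; limma adjusted p = 0.554). Its relative KIF21A had the log2 fold change -0.14 ± 0.12 (SE) and overlapped.

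The kinesin light chains link kinesin-1 to cargo, and only KLC4 was without overlap among the 4 of them. KLC4 had 1086 and 927 normalized reads in LF/LCL against 868, 646 and 810.3 in SF/SCL, with a log2 fold change of 0.38 ± 0.16 (SE; limma adjusted p = 0.451). KLC1, KLC2 and KLC3 had log2 fold changes of -0.20, 0.19 and -0.44 and overlapped. The kinesin-3 members KIF1B, KIF13A, KIF13B and KIF16B, which carry mitochondria, vesicles and endosomes, had means of 525 to 1365 normalized reads and log2 fold changes of 0.13 to 0.30. KIF3C, an alternative partner of KIF3A, and the minus end directed motors KIFC2 and KIFC3 had log2 fold changes of -0.20, 0.27 and -0.10. The groups of each of these 7 overlapped.

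The adaptors and regulators of transport kinesins varied little in sum. Of 25 tested, 14 leaned towards LF/LCL and 11 towards SF/SCL, their median log2 fold change was 0.04, and their sums ranged from 27088 to 29041 normalized reads. A single entry had an unadjusted p under 0.05, which is 4% against 11.5% of all genes. It was MADD, an adaptor of KIF1A and KIF1B, with 833 and 919.5 against 1095, 1058 and 1075 normalized reads (log2 fold change -0.30, limma adjusted p = 0.373). BICD1, an adaptor of dynein as well as of kinesin-1, came next at -0.59 (limma adjusted p = 0.463). Of 23 entries for cytoplasmic dynein 1 and dynactin, which move cargo the opposite way, 15 leaned towards LF/LCL and 8 towards SF/SCL. An unadjusted p under 0.05 was reached by 3 and 2 of them, together 21.7% against 11.5% of all genes. DYNC1I1, a dynein intermediate chain, had 14.1 and 68.7 against 145, 187 and 282 normalized reads (log2 fold change -2.61, limma adjusted p = 0.306). DYNC1LI1, a light intermediate chain, had 767 and 757 against 611, 587 and 599.9 (log2 fold change 0.35, limma adjusted p = 0.337).

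KIF2A supplied most of the reads of the mitotic class. KIF2A, a kinesin-13 that depolymerizes microtubules at spindle poles and also in cells that do not divide, supplied 71.2% ± 5.02 (SD, n = 2) of the reads of its class in LF/LCL libraries and 68.1% ± 2.95 (SD, n = 3) of them in SF/SCL libraries. It had 1003 and 1313 normalized reads in LF/LCL against 1399, 1107 and 1149 in SF/SCL, with overlap. Means were 1158 ± 219 (SD, n = 2) and 1218 ± 158 (SD, n = 3), and the log2 fold change was -0.08 ± 0.17 (SE; limma adjusted p = 0.900).

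KIF2C was the mitotic member with the largest difference. It is the kinesin-13 of the kinetochore, also known as MCAK, and corrects faulty attachments of chromosomes to the spindle. KIF2C had 32.8 and 67.8 normalized reads in LF/LCL against 218, 119.7 and 288 in SF/SCL. The groups were apart but each was spread widely, with means of 50.3 ± 24.7 (SD, n = 2) and 209 ± 84.4 (SD, n = 3), a ratio of 4.15. It had a log2 fold change of -2.03 ± 0.48 (SE), with an unadjusted limma p of 0.00528, an adjusted p of 0.281 and a DESeq2 adjusted p of 0.00595. Counts were 28 to 268 reads per library. Without LF/LCL replicate 1, SF/SCL replicate 1 or SF/SCL replicate 3, DESeq2 no longer called it. Among mitotic reads other than those of KIF2A, KIF2C took 6.86% and 15.3% in LF/LCL against 37.8%, 23.5% and 46.4% in SF/SCL.

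KIF23, a midzone motor of cytokinesis also known as MKLP1, had 115 and 102 normalized reads in LF/LCL against 145, 141 and 173 in SF/SCL. It too was without overlap, with means of 108 ± 9.4 (SD, n = 2) and 153 ± 17.3 (SD, n = 3). The log2 fold change was -0.49 ± 0.22 (SE; limma adjusted p = 0.471). KIF20A, the related midzone motor MKLP2, leaned the other way with 62.2 and 24.2 normalized reads in LF/LCL against 25.0, 19.4 and 11.8 in SF/SCL. A single LF/LCL library stood out, the other being within the SF/SCL range, and means were 43.2 ± 26.8 (SD, n = 2) and 18.7 ± 6.6 (SD, n = 3). This gave a log2 fold change of 1.08 ± 0.58 (SE; limma adjusted p = 0.544), and 0.41 without LF/LCL replicate 1.

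The motors that build and shape the spindle had few reads, and most were nominally higher in LF/LCL. KIF11, which pushes spindle poles apart and is the target of antimitotic drugs, had 41.0 and 53.2 against 28.1, 32.6 and 17.2 normalized reads, and KIFC1, a minus end directed motor that bundles spindle microtubules, had 59.8 and 56.1 against 46.8, 37.3 and 15.0. Neither overlapped, with log2 fold changes of 0.87 ± 0.44 and 0.93 ± 0.55 (SE; limma adjusted p of 0.509 and 0.570). KIF22, a chromosome arm motor, KIF18A, which aligns chromosomes, KIF18B, KIF14, a cytokinesis motor, KIF15, KIF25 and KIF20A overlapped, and the log2 fold changes of KIF22, KIF18A, KIF18B, KIF14, KIF15 and KIF25 were 0.39, 0.27, 0.47, 0.69, -0.13 and -0.82. The means of KIF14, KIF18B and KIF25 over all libraries were 9.18, 10.3 and 7.62 normalized reads, and the SEs of their log2 fold changes were 0.80, 0.58 and 0.78. KIF2B was at 0 reads in 1 LF/LCL library and at most 5 reads elsewhere, and was not tested.

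Other genes of dividing cells mostly leaned the opposite way to KIF2C and KIF23. Of 16 spindle and midzone partners of mitotic kinesins, 14 had the higher mean log2 value in LF/LCL, the median log2 fold change was 0.44, and all 7 without overlap were higher in LF/LCL. An unadjusted p under 0.05 was reached by 2 of them, which is 12.5% against 11.5% of all genes, and 43.8% were without overlap against 30.1%. These were CENPF, a kinetochore protein, with 114 and 58.1 against 35.4, 33.4 and 25.8 normalized reads (log2 fold change 1.35, limma adjusted p = 0.344), and AURKA, a spindle pole kinase, with 43.4 and 49.4 against 25.0, 26.4 and 20.4 (0.93, limma adjusted p = 0.424). CENPE, itself a kinesin of the kinetochore but not matched by symbol, had a log2 fold change of 0.04. Of 17 proliferation markers, 15 were higher in LF/LCL, with a median of 0.45. An unadjusted p under 0.05 was reached by 5 (29.4%, against 11.5% of all genes), and DESeq2 called none (2.89% of all genes). TOP2A, the topoisomerase of dividing cells, had 251 and 88.1 against 52.0, 64.5 and 38.6 normalized reads (1.54, limma adjusted p = 0.359).

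Per 1000 reads of proliferation markers KIF2C had 7.57 and 19.4 reads in LF/LCL against 72.0, 37.3 and 96.4 in SF/SCL, so that its groups stayed apart. KIF20A had 14.3 and 6.92 against 8.23, 6.05 and 3.96 by the same measure, with overlap. The marker reads came mainly from PCNA, TYMS, MCM2, MCM3, MCM5 and MCM6. Each of these varied less between the libraries than TOP2A, so that the scaled values are not counts per dividing cell. Summed over the class, mitotic kinesins had 1481 and 1755 normalized reads in LF/LCL against 1976.5, 1616 and 1770 in SF/SCL, with overlap. Without KIF2A the sums were 478 and 442 against 577, 509 and 620, higher in SF/SCL. KIF2C and KIF23 were then also set aside after their values had been seen. As both were entirely higher in SF/SCL, their removal by itself moves the sum towards LF/LCL. The other mitotic kinesins summed to 331 and 273 normalized reads in LF/LCL against 214, 248 and 160 in SF/SCL.

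**Figure D4:**
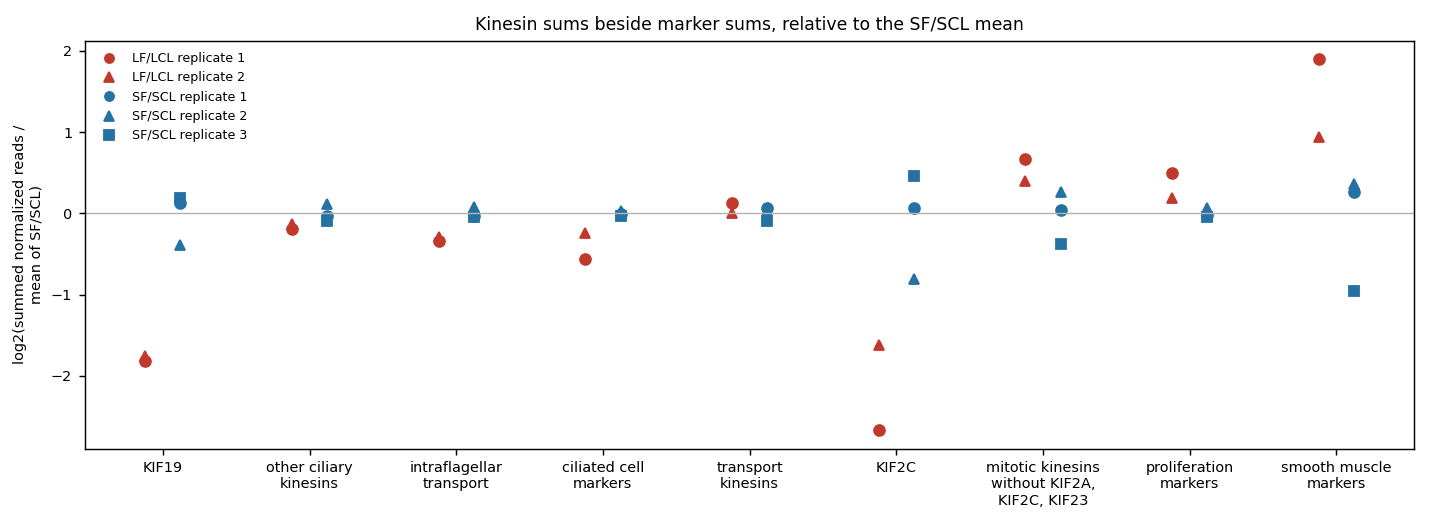
Log2 of normalized reads relative to the SF/SCL mean (vertical axis) for KIF19, KIF2C and sums of gene groups (horizontal axis) in each library, LF/LCL in red and SF/SCL in blue. KIF19 lies far lower in LF/LCL than other ciliary kinesins, intraflagellar transport genes or ciliated cell markers. KIF2C lies lower in LF/LCL, while the mitotic kinesins other than KIF2A, KIF2C and KIF23 and the proliferation markers lie higher. KIF2A, KIF2C and KIF23 were left out after their values had been seen. With KIF2A alone left out, the mitotic sum (not drawn) is lower in LF/LCL.

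The 3 remaining kinesins belonged to none of the classes. KIF12, which is linked to the polarity of epithelial cells in kidney and liver, had 50.4 and 134 normalized reads in LF/LCL against 329.6, 212 and 743 in SF/SCL. The groups were apart and the SF/SCL libraries differed greatly, with means of 92.0 ± 58.8 (SD, n = 2) and 428 ± 279 (SD, n = 3), a ratio of 4.65. The log2 fold change was -2.17 ± 0.64 (SE), with an unadjusted limma p of 0.0156, an adjusted p of 0.333 and a DESeq2 adjusted p of 0.0168. Without LF/LCL replicate 1 it had a log2 fold change of -1.48 and an unadjusted p above 0.05, and without LF/LCL replicate 1 or SF/SCL replicate 3 DESeq2 did not call it.

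KIF26A and KIF26B are atypical kinesins that act in cell signalling and adhesion during development. KIF26A had 119.6 and 40.7 normalized reads in LF/LCL against 38.5, 62.2 and 96.6 in SF/SCL, with overlap. Means were 80.1 ± 55.8 (SD, n = 2) and 65.7 ± 29.2 (SD, n = 3), and the log2 fold change was 0.18 ± 0.59 (SE; limma adjusted p = 0.938). KIF26B had 24.6 and 36.8 in LF/LCL against 54.1, 47.4 and 39.7 in SF/SCL. It did not overlap, but the gap was small, with means of 30.7 ± 8.59 (SD, n = 2) and 47.1 ± 7.18 (SD, n = 3) and a log2 fold change of -0.62 ± 0.38 (SE; limma adjusted p = 0.587).

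The 4 kinesins called by DESeq2 ordered the libraries alike. KIF19, KIF2C and KIF12 were lowest in LF/LCL replicate 1 and followed in rising order by LF/LCL replicate 2 and SF/SCL replicates 2, 1 and 3. KIF5C had exactly the reverse order, which was also that of the summed smooth muscle markers. This order or its reverse was held by 4 of 42 kinesins (9.52%) and by 3.71% of all genes tested, and it was looked for after the values had been seen. Only genes whose groups do not overlap can hold it, which were 15 kinesins and 4765 of all genes tested. It was held by 4 and 587 of these. Relative to ciliated cell markers the groups of KIF12 and KIF2C also stayed apart. Per 1000 ciliated cell marker reads KIF12 had 0.624 and 1.31 in LF/LCL against 2.76, 1.73 and 6.34 in SF/SCL, and KIF2C had 0.406 and 0.667 against 1.83, 0.977 and 2.46.

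The remaining cell type lists describe the tissue in which these values were measured. Of 7 secretory epithelial markers 5 were higher in LF/LCL, each with an unadjusted p under 0.05 and without overlap, and the list had a median log2 fold change of 0.45. These 5 are 71.4% of the markers, against 11.5% of all genes by p and 30.1% by overlap. The others, OVGP1 and MSLN, overlapped and leaned towards SF/SCL, with log2 fold changes of -0.07 and -1.13. Stromal fibroblast markers had a median of 0.62 with none of 8 at an unadjusted p under 0.05. Immune cell markers had a median of 0.45 with 5 of 12 (41.7%) at an unadjusted p under 0.05, and endothelial markers a median of 0.10 with 1 of 7 (14.3%), against 11.5% of all genes. Their part in the kinesin values was not tested.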

How the data were processed

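RNA-Seq of the ampulla was analysed in 5 libraries, each from a different cow. Groups followed the GEO labels and no batch was given. The deposited values are a normalized signal, made by the authors by dividing the read count of a gene by a size factor per library. Per the labels and the submitters' processing notes, bases were called with CASAVA 1.8.2, reads were cleaned with seqyClean and aligned with TopHat2 2.0.8 and Bowtie2 2.1.0 to the masked UMD cattle assembly, handled with SAMtools 0.1.18, counted uniquely per Ensembl gene with HTSeq 0.5.4p2 and scaled with DESeq 1.12.1. Use of strand was not stated, so overlapping and antisense genes cannot be told apart, and near-identical genes can lose reads. Dividing by the step of each library gave whole reads (within 0.05 reads) for 100% of values. The number of reads limits the precision of low genes, and p-values measure the spread between these cows only.

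The main test was limma 3.58.1 (R 4.3.3) on log2(value + 1) through lmFit and a trended, robust eBayes step, over 15815 genes with a mean above 5, without covariates, two-sided, and with Benjamini-Hochberg adjustment at 0.05. Fold changes understate those of low genes. The alternatives edgeR 4.0.16 (quasi-likelihood, TMM) and DESeq2 1.42.0 (no independent filtering) used whole reads. In the count tests and limma the same 2 and 3 libraries were compared. The fits were also run on simulated counts, drawn gene by gene with the means and spread of these libraries. No result given here rests on that run. Means, sums and figures were made with Python 3.11.15, pandas 2.3.3, numpy 2.4.6 and matplotlib 3.10.9.

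The members, classes, gene lists and tests were chosen with earlier results of these data known. KIF3A, KIF3B and KIFAP3 were counted as ciliary. Values in full were given to members with an unadjusted p under 0.05, to those called by DESeq2, and per class to the 3 with the highest mean and the 2 with the largest absolute fold change, and other genes named are the 2 with the smallest p of a list, the defining markers of a cell type or genes singled out after their values were seen. No set test was made. Promoters, protein sequences, genome coordinates and levels per transcript length were not used here.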

Additional observations from a re-analysis of the deposited data

How the results depend on the processing

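With DESeq2, 4 kinesins had an adjusted p under 0.05 in place of 0, and no limma or edgeR setting gave any, also when 1 library was left out (0 to 0). The DESeq2 calls numbered 2 to 5 without 1 library, with KIF19 and KIF5C called each time, only these without LF/LCL replicate 1 or SF/SCL replicate 3, and KIF17 added without LF/LCL replicate 2. Plain eBayes gave 10 kinesins at an unadjusted p under 0.05 in place of 6, against 10.5% of all genes, adding KIF11, KIF21B, KIF23 and KIF6. Leaving out 1 library gave 4 to 8 of these, KIF12 and KIF9 being lost without LF/LCL replicate 1. Kinesins without overlap numbered 17 to 29 when 1 library was left out, an alternative added after the data were seen, in which fewer libraries make overlap rarer for all genes, and the 17 stood against 41.2% of all genes and the 29 against 57.1%. The transport median log2 fold change was -0.0674 without LF/LCL replicate 1 and -0.0674 to 0.19 over the libraries left out, the ciliary median -0.29 to -0.20 and the mitotic median 0.20 to 0.40. Counting KIF3A, KIF3B, KIFAP3 and KIF17 as transport kinesins gave a ciliary median of -0.30. Of 220 comparisons over the 17 kinesins given in full, 201 kept direction and side of an adjusted p of 0.05, and 4 passed it with DESeq2. The other 15 turned direction, in 6 kinesins that lay near 0 or were noisy. As no gene reached that threshold with limma or edgeR, only DESeq2 could change the side. Crossings of an unadjusted p of 0.05 were not counted here. Scaling by library size gave -0.00528 for KIF5B and -0.0323 for KIF27, and edgeR and DESeq2 gave -0.000149 and -0.00106 for KIF27. Without 1 library the ranges were -0.0674 to 0.28 for KIF1A, -0.26 to 0.19 for KIF1C, -0.0255 to 0.0871 for KIF5B, -0.0844 to 0.0941 for KIF27, -0.27 to 0.11 for KIF2A and -0.58 to 0.95 for KIF26A. The cause was not tested. No paired analysis was possible because the groups came from different cows, which the labels do not match to each other. Leaving out an LF/LCL library leaves 1, whose spread is taken from SF/SCL. KIF2B, KIF5A, KIF14 and KIF25 had means under 10 normalized reads, where counting error is largest.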
